A study of Mus musculus with 17 samples.

Results

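The 7 chemokine ligand genes described here are Ccl1, Ccl3, Ccl4, Ccl5, Ccl20, Cxcl2 and Xcl1, followed by name through every bulk and single-cell library of mouse skin innate lymphoid cells (ILCs), lymphocytes that lack rearranged antigen receptors. All 7 were among the 54446 genes of the bulk libraries. The 4 CC ligands Ccl1, Ccl3, Ccl4 and Ccl5 lie on chromosome 11 of the mm10 build, and Ccl20 and Xcl1 lie on chromosome 1. In the deposited gene models Ccl1 (ENSMUSG00000020702) spans 82176657 to 82305690 on the minus strand. Its 17 exon records reach upstream of the RefSeq start site used below, and any reads of those outer exons are part of the Ccl1 values. Ccl3 (ENSMUSG00000000982) spans 83647844 to 83649355 on the minus strand, and Ccl4 (ENSMUSG00000018930) spans 83662584 to 83664683 on the plus strand. Ccl5 (ENSMUSG00000035042) spans 83525778 to 83530518 on the minus strand of the same chromosome. Ccl20 (ENSMUSG00000026166) spans 83116766 to 83119167 on the plus strand of chromosome 1. Xcl1 (ENSMUSG00000026573) spans 164931644 to 164935527 on the minus strand of chromosome 1, and it overlaps the antisense gene model Gm20743. Cxcl2 (ENSMUSG00000058427) spans 90903871 to 90905938 on the plus strand of chromosome 5. Whether reads were counted by strand is not given in the sources used here, so reads of Xcl1 and Gm20743 could not be told apart and the Xcl1 values are uncertain to that extent.

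Chemokines are small secreted proteins that bind G protein-coupled receptors and draw cells along their gradient. Ccl1 is the ligand of Ccr8, a receptor of skin-resident lymphocytes and ILC2s, and Ccl20 is the ligand of Ccr6, a receptor of type 17 lymphocytes. Ccl3, Ccl4 and Ccl5 are inflammatory ligands made in quantity by NK cells and activated T cells. Cxcl2 draws neutrophils through Cxcr2, and Xcl1, known from NK cells and ILC1s, draws Xcr1-bearing dendritic cells. Many chemokine genes are switched on within hours by NF-kB, a transcription factor that activating receptors release.

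The bulk data were 14 polyA RNA-seq libraries in 6 groups from mice on a C57BL/6 background, made from live, lineage-negative, CD90-positive skin cells without the γδ T cell receptor. In 10 libraries the mice carried a fate-map (fm) reporter, which leaves a cell marked after the driving gene has gone silent. Reporter-positive and reporter-negative cells came from mice labelled as lacking Gata3 through a floxed allele (fm_pos_Gata3flox, n = 3, and fm_neg_Gata3flox, n = 3) and from mice with the allele intact (fm_pos, n = 2, and fm_neg, n = 2). The other 4 libraries came from Gata3 fl/fl CreERT2 mice, whose Cre is active after tamoxifen (Gata3KO_tamoxifen, n = 2), and from wild-type mice (WT_tamoxifen, n = 2), all given 5 mg tamoxifen in each of 3 injections. Single cells were profiled in 3 libraries, 1 of skin ILCs and 1 each of dorsal skin ILCs at day 10 and day 0 after depilation, which starts a new hair cycle. Ages and the number of animals behind a library are not given in the sources used here, so p-values measure the spread between these libraries, which may be technical.

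Total counts ran from 14450612 to 44098274 per bulk library. Gata3, the transcription factor named by the floxed label, was counted in every library. It had 154, 235 and 307 CPM (counts scaled to a common normalised library size) in fm_pos_Gata3flox and 264, 430 and 442 CPM in fm_neg_Gata3flox, against 164 and 303 CPM in fm_pos and 381 and 504 CPM in fm_neg. In the tamoxifen libraries it had 299 and 314 CPM in Gata3KO_tamoxifen, against 381 and 581 CPM in WT_tamoxifen. No comparison of floxed with intact libraries called it (log2 fold changes of −0.01, −0.22 and −0.65, Benjamini-Hochberg adjusted p = 1, 0.783 and 0.742 in edgeR), so the floxed groups are named here by their labels. Which exons the floxed allele removes cannot be read from whole-gene counts.

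The libraries also differed in markers of other skin cells. Summed CPM of 14 keratinocyte markers ran from 661 to 781 in fm_pos_Gata3flox and from 540 to 685 in fm_neg_Gata3flox, against 381 to 472 in fm_pos and 2684 to 4752 in fm_neg. Summed CPM of 10 fibroblast markers ran from 144 to 353 and from 417 to 1083 in those floxed groups, against 68.4 to 190 in fm_pos and 6175 to 8308 in fm_neg. Summed CPM of 13 myeloid markers ran from 327 to 840 in fm_pos_Gata3flox and from 580 to 1129 in fm_neg_Gata3flox. They ran from 82.4 to 165 in fm_pos and from 272 to 371 in fm_neg. Tyrobp, which also serves NK receptors, is on that list. It had 125 to 454 CPM in the floxed libraries, against 1 to 91.4 CPM in the intact ones. The part of myeloid cells in the ligand levels was not tested. In bulk libraries fewer cells of a type and less RNA per cell cannot be told apart.

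The 250 bases before the RefSeq start site are shown for the 4 ligands whose promoters held a match to GGGNNNTTC, a short form of the sequence bound by NF-kB. The capitals mark the matched bases, and each sequence is written in the direction of its gene (GRCm38.p6 build, RefSeq).
Ccl1, chr11:82179813-82180062, minus strand: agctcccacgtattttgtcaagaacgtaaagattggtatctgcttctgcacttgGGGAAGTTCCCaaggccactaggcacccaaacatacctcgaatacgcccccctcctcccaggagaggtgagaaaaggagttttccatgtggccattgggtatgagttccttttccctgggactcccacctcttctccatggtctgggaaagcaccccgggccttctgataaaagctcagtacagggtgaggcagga
Ccl20, chr1:83116516-83116765, plus strand: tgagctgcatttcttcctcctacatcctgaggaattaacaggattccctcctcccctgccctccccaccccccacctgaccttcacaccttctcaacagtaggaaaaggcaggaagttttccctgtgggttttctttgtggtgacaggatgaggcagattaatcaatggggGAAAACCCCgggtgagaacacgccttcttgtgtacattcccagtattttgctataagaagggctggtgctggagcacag
Cxcl2, chr5:90903649-90903898, plus strand: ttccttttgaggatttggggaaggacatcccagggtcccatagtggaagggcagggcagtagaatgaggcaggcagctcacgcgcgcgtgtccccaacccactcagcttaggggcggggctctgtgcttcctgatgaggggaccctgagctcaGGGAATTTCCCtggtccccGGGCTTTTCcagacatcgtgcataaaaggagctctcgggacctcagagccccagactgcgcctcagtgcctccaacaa
Xcl1, chr1:164935523-164935772, minus strand: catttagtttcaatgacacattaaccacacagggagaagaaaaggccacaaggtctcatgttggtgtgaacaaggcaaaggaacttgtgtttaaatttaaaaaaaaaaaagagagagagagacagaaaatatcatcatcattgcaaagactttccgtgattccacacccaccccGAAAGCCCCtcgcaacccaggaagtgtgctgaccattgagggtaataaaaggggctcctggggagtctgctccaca

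The promoters of 5 of the 7 ligands were in the RefSeq table, and that of Ccl3 held no match. Searched on both strands, GGGNNNTTC occurred in 4 of these 5, and in 11.8% of the 32851 promoters of the same length. The Ccl1 match lay at −196 to −186 from the start site and was read on both strands, as overlapping matches. The Ccl20 match lay at −79 to −71 and the Xcl1 match at −76 to −68, both on the minus strand. Cxcl2 held a match at −97 to −87, again read on both strands, and another at −78 to −70. The narrower form GGGNNTTTC, which is part of the first by construction, occurred in Ccl20, Cxcl2 and Xcl1 and in 3.72% of all promoters. The AP-1 form TGANTCA and the GATA form AGATAA occurred in 0 of the 5 promoters, against 6.75% and 9.99% of all promoters, which says only that these letters are not in these windows.

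**Figure D1:**
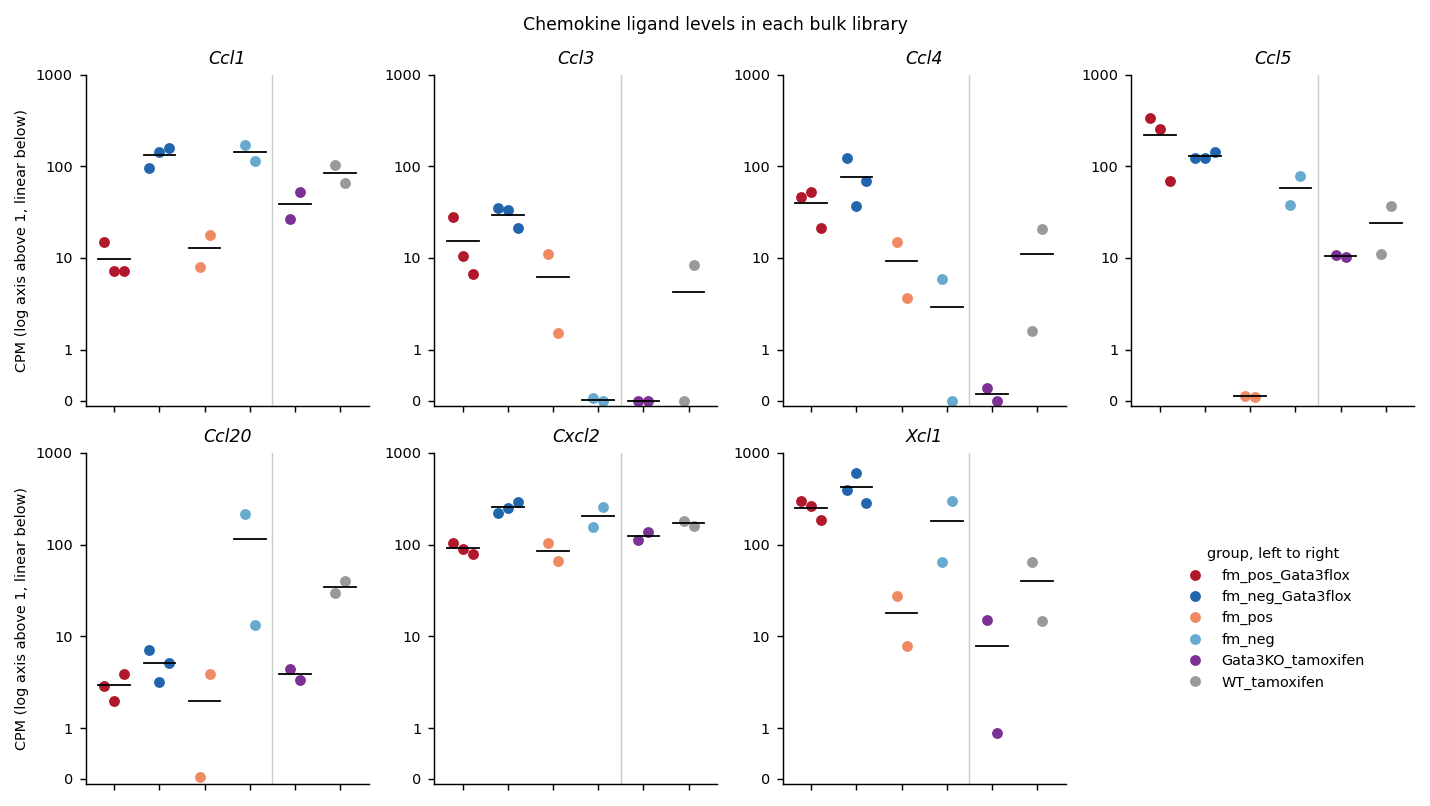
CPM of each of the 7 chemokine ligands in the 14 bulk libraries (points), by group from left to right (fm_pos_Gata3flox, fm_neg_Gata3flox, fm_pos, fm_neg, Gata3KO_tamoxifen, WT_tamoxifen), with black bars at the group means; the axis is logarithmic above 1 CPM and linear below it. Ccl1 and Cxcl2 lie lower in both reporter-positive groups than in both reporter-negative groups, while Ccl5 is near 0 in fm_pos alone, at 0.0974 and 0.0753 CPM.

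Ccl1, the Ccr8 ligand, was lower in reporter-positive cells than in reporter-negative cells, with the floxed label and without it. It had 14.8, 7.16 and 7.27 CPM in fm_pos_Gata3flox, against 96.7, 142 and 158 CPM in fm_neg_Gata3flox. In the mice with intact Gata3 it had 7.92 and 17.8 CPM in fm_pos, against 169 and 115 CPM in fm_neg. Every reporter-positive library lay below every reporter-negative one. The log2 fold change was −3.77 ± 0.43 (SE) in the floxed libraries (adjusted p = 0.00914) and −3.46 ± 0.51 in the intact ones (adjusted p = 0.0101), both by the edgeR quasi-likelihood fit. Of the 17456 genes tested, 0.361% were called in the floxed comparison and 2.74% in the intact one. Group means from low to high were 9.73 ± 4.36 CPM (SD) in fm_pos_Gata3flox, 12.9 ± 6.98 in fm_pos, 132 ± 31.6 in fm_neg_Gata3flox and 142 ± 38.5 in fm_neg, and only the middle step of that order was wider than the spread of its groups. The floxed label itself came with no called difference in Ccl1, at −0.41 in reporter-positive cells (adjusted p = 0.653) and −0.10 in reporter-negative cells (adjusted p = 0.932). The floxed call did not survive the removal of replicate 2 or replicate 3 of either group (adjusted p up to 0.0675), at log2 changes of the same sign.

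Cxcl2, the neutrophil-drawing ligand, was likewise lower in both reporter-positive groups than in both reporter-negative groups, at a smaller size. It had 105, 88.7 and 79.2 CPM in fm_pos_Gata3flox, against 219, 251 and 291 CPM in fm_neg_Gata3flox. It had 103 and 67 CPM in fm_pos, against 154 and 258 CPM in fm_neg. Neither pair of groups overlapped, although the lower fm_neg library stood nearer to fm_pos than the other did. Cxcl2 fell by 1.48 ± 0.25 on the log2 scale in the floxed comparison (adjusted p = 0.0431). The intact comparison gave −1.28 ± 0.30 and missed the threshold (adjusted p = 0.0564). The floxed call was lost when any single one of its 6 libraries was left out.

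Ccl1 and Cxcl2 were the only 2 of the 7 ligands called between fm_pos_Gata3flox and fm_neg_Gata3flox, against 0.361% of all genes tested, and the only 2 whose libraries did not overlap there (18.2% of all genes tested did not overlap). The other 5 were not called: Xcl1 at −0.78, Ccl20 at −0.81, Ccl4 at −0.94, Ccl3 at −0.97 and Ccl5 at 0.76, with adjusted p between 0.826 and 1. The median over the 7 was −0.94, against 0 over all genes tested.

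Ccl5, an inflammatory ligand of NK cells and effector T cells, was close to absent in fm_pos and present in every other bulk group. It had 332, 257 and 69.8 CPM in fm_pos_Gata3flox and 123, 122 and 144 CPM in fm_neg_Gata3flox. It had 0.0974 and 0.0753 CPM in fm_pos, which is 3 counts in each library, and 38.0 and 77.7 CPM in fm_neg. No other fate-map library came near the level of fm_pos. By summed counts Ccl5 was 2240-fold higher in fm_pos_Gata3flox than in fm_pos (95% counting interval 1029 to 6105), with an adjusted p of 0.00202 by the edgeR fit. It was 631.8-fold higher in fm_neg than in fm_pos (289.7 to 1724), with an adjusted p of 0.00175. Both intervals cover counting error only, and the fitted log2 changes, 11.25 and −9.33, depend on a prior count where 1 group has so few reads. Neither fm_pos_Gata3flox against fm_neg_Gata3flox (0.76, adjusted p = 0.826) nor fm_neg_Gata3flox against fm_neg (1.16, adjusted p = 0.293) was called. The 2 called comparisons share the fm_pos libraries.

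Of the 14 genes on the list of ILC1 and NK cell markers, 1 fell and 0 rose in fm_pos against fm_neg. Of all genes tested there, 2.11% fell and 0.624% rose. The log2 change was negative for 10 of the 14 and positive for 4, against 48.7% negative over all genes. Ncr1, an activating receptor of ILC1s and NK cells, was named after its values were seen. It had 18.8, 13.6 and 16.8 CPM in fm_pos_Gata3flox and 75.4, 38.4 and 25.1 CPM in fm_neg_Gata3flox. It had 0 counts in both fm_pos libraries, where 3 counts would be 0.0974 and 0.0753 CPM, and 6.08 and 9.18 CPM in fm_neg. In fm_pos 10 and 11 of the 14 ILC1 and NK genes had a count, with Ncr1 and Klrb1c at 0. Their summed CPM ran from 1365 to 2319 in fm_pos_Gata3flox and from 2284 to 4077 in fm_neg_Gata3flox, against 1638 to 2064 in fm_pos and 1399 to 2180 in fm_neg. The sum of the list thus overlapped between fm_pos and fm_neg. The part of those cells in the Ccl5 difference was not tested.

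Xcl1, the Xcr1 ligand, had 299, 263 and 183 CPM in fm_pos_Gata3flox and 390, 604 and 284 CPM in fm_neg_Gata3flox. It had 27.8 and 7.93 CPM in fm_pos and 64.3 and 301 CPM in fm_neg. Both fm_pos libraries lay below all others, and the fm_neg libraries were far apart from each other. Xcl1 rose by 3.80 ± 0.76 on the log2 scale in fm_pos_Gata3flox against fm_pos (adjusted p = 0.0432 by the edgeR fit). The call was lost without fm_pos replicate 2 or any single fm_pos_Gata3flox library, and with a term for the L1 or L2 token that the deposited names carry. The difference between fm_pos and fm_neg was −3.36 ± 0.77 (adjusted p = 0.0524). Ccl5 and Xcl1 were thus 2 of 7 ligands called for the floxed label in reporter-positive cells, where 1.52% of all genes were called. The other 5 there were −0.41 for Ccl1, 0.10 for Cxcl2, 0.57 for Ccl20, 1.28 for Ccl3 and 2.1 for Ccl4, with adjusted p between 0.349 and 0.896. The libraries of 3 ligands did not overlap in that comparison (33% of all genes), and the median was 1.28, against 0.18 over all genes tested.

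Ccl3, another inflammatory CC ligand, was near 0 in fm_neg. It had 28.3, 10.5 and 6.72 CPM in fm_pos_Gata3flox and 35, 33.2 and 21.1 CPM in fm_neg_Gata3flox. It had 11 and 1.51 CPM in fm_pos, and 0.045 and 0 CPM in fm_neg, where both libraries together held 1 read. Every library of the other fate-map groups held Ccl3 reads. By summed counts it was 1108-fold higher in fm_neg_Gata3flox than in fm_neg (95% counting interval 198.7 to 43810), with an adjusted p of 0.0219, and 206.5-fold higher in fm_pos than in fm_neg (36.85 to 8177), with an adjusted p of 0.0277, both from edgeR. Both comparisons share the fm_neg libraries. The first call was lost whenever 1 of its 5 libraries was left out (adjusted p up to 0.0918), and the second without either fm_neg library. With fm_neg_Gata3flox in place of fm_neg as the reporter-negative group, the log2 change of Ccl3 in fm_pos was −2.25 (adjusted p = 0.203), the opposite direction. The token term in the fit ended the second call too.

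Ccl4, which is encoded beside Ccl3 and has a like role, was called by edgeR in none of the comparisons between fate-map groups. It had 46.4, 52.4 and 21.2 CPM in fm_pos_Gata3flox and 123, 37.2 and 69.9 CPM in fm_neg_Gata3flox. It had 15 and 3.66 CPM in fm_pos and 5.86 and 0 CPM in fm_neg. The floxed groups lay above the intact ones in every library, and fm_pos and fm_neg overlapped. Ccl4 had a log2 change of 4.67 for the floxed label in reporter-negative cells (adjusted p = 0.128) and 2.1 in reporter-positive cells (adjusted p = 0.349). Between fm_pos and fm_neg it was 1.63 (adjusted p = 0.520), and −3.04 (adjusted p = 0.199) when fm_neg_Gata3flox stood in for fm_neg.

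Ccl20, the Ccr6 ligand, was high in 1 library. It had 2.89, 1.98 and 3.89 CPM in fm_pos_Gata3flox and 7.13, 3.17 and 5.16 CPM in fm_neg_Gata3flox. It had 0.0325 and 3.86 CPM in fm_pos and 215 and 13.3 CPM in fm_neg. The high library, fm_neg replicate 1, held 4771 reads of Ccl20, and the next highest in the fate-map set was the other fm_neg library. Its log2 change in fm_pos against fm_neg was −5.86 ± 1.67 (adjusted p = 0.105), and −2.76 without fm_neg replicate 1 (adjusted p = 0.451). In fm_neg_Gata3flox against fm_neg it was −4.47 (adjusted p = 0.131). Krt14, a keratinocyte keratin, had 69.3 and 23.5 CPM in fm_pos against 2241 and 1161 CPM in fm_neg, and Ccl20 is a known product of keratinocytes. The part of those cells in the Ccl20 level was not tested.

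In all, 3 of the 7 ligands were called between fm_pos and fm_neg (Ccl1 and Ccl5 lower, Ccl3 higher), against 2.74% of all genes tested. The libraries did not overlap for 6 of the 7, against 35% of all genes tested, and the median log2 fold change was −3.36, against 0 over all genes. For the floxed label in reporter-negative cells 1 of 7, Ccl3, was called, where 1.33% of all genes were called. There 4 of 7 did not overlap, against 39.5% of all genes, and the median was 1.16, against 0.07. The interaction of reporter and floxed label, which tests whether the reporter contrast differed between labelled floxed and intact mice, called 2 of 7, against 1.01% of all genes. It was 10.09 ± 1.02 for Ccl5 (adjusted p = 0.00361 by edgeR) and −8.61 ± 1.63 for Ccl3 (adjusted p = 0.0416). It was not called for Ccl20 (5.04), Xcl1 (2.58), Ccl4 (−2.57), Ccl1 (−0.30) or Cxcl2 (−0.20), with adjusted p between 0.25 and 0.95. The Ccl5 interaction was called without each library in turn, and the Ccl3 interaction was lost without 8 of the 10. These comparisons share libraries, so their counts are not independent of one another.

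**Figure D2:**
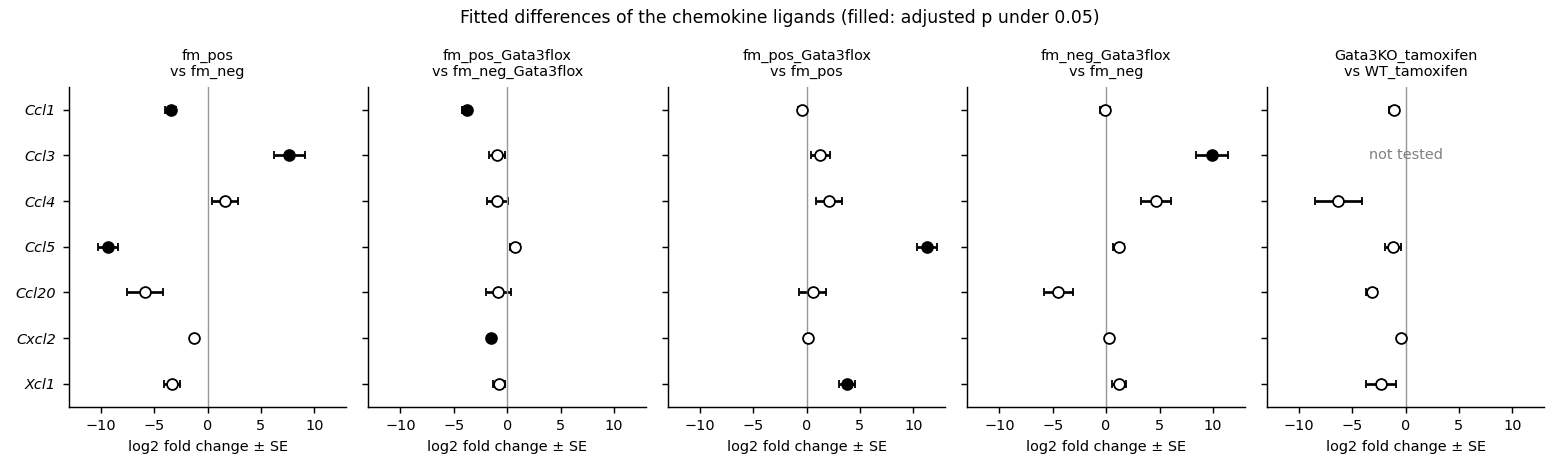
Log2 fold change with its SE (bars) for each ligand in 5 bulk comparisons; filled points have an edgeR adjusted p under 0.05, and Ccl3 was not tested in the tamoxifen libraries. Ccl1 lies at −3.77 and −3.46 in the reporter comparisons of floxed and intact mice, whereas Ccl5 lies at 0.76 and −9.33.

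Levels compared per kilobase of exon put the genes in a different order in each group. In fm_pos the mean per kilobase was 41.1 CPM for Cxcl2, 34.2 for Xcl1, 14.1 for Ccl4, 8.16 for Ccl3, 5.43 for Ccl1, 1.37 for Ccl20 and 0.0899 for Ccl5. In fm_neg it was 350 CPM for Xcl1, 99.6 for Cxcl2, 80.3 for Ccl20, 60.3 for Ccl5, 60.0 for Ccl1, 4.44 for Ccl4 and 0.0294 for Ccl3. Xcl1 led in fm_neg with an SD nearly as large as its mean, so its place there rests on 1 library. The SD of Ccl20 in fm_neg was larger than its mean, so its place rests on 1 library as well.

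In the tamoxifen libraries all 6 ligands tested had lower fitted levels in Gata3KO_tamoxifen than in WT_tamoxifen, and none was called. Of all 13272 genes tested, 0% were called by edgeR and 51.5% had a negative log2 fold change. Ccl20 had 4.36 and 3.37 CPM in Gata3KO_tamoxifen, against 29.5 and 39.8 CPM in WT_tamoxifen. Ccl4 had 0.249 and 0 CPM in Gata3KO_tamoxifen, against 1.61 and 20.6 CPM in WT_tamoxifen, and Ccl1 had 26.3 and 52.0 against 102 and 65.4 CPM. The libraries of the groups did not overlap for these 3 genes. The log2 fold change was −3.16 ± 0.51 for Ccl20 (unadjusted p = 0.00154, adjusted p = 0.585 by the edgeR fit) and −6.31 ± 2.20 for Ccl4 (unadjusted p = 0.0349, adjusted p = 0.651). Ccl4 rests on 6 reads in Gata3KO_tamoxifen and 354 in WT_tamoxifen, nearly all in 1 library, a 72.37-fold lower summed level in Gata3KO_tamoxifen with a counting interval of 32.92 to 198.5.

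The other ligands of the tamoxifen set were further from a call. Cxcl2 had 112 and 137 CPM in Gata3KO_tamoxifen, against 183 and 158 CPM in WT_tamoxifen. Xcl1 had 14.9 and 0.893 CPM against 64.7 and 14.8 CPM, and Ccl5 had 10.8 and 10.2 CPM against 11.1 and 36.6 CPM. Of these 3, Xcl1 overlapped between the groups and the others did not. Their log2 changes were −0.45, −2.32 and −1.19, that of Ccl1 was −1.10, and the adjusted p ran from 0.743 to 0.938. Ccl3, which did not pass the filter on low counts, had 0 reads in both Gata3KO_tamoxifen libraries and in 1 WT_tamoxifen library, and 135 reads (8.44 CPM) in the other WT_tamoxifen library. In all, 5 of 6 tested ligands did not overlap (36.1% of all genes) and 2 had an unadjusted p under 0.05 (6.89% of all genes). DESeq2 on the same counts called Ccl20 (adjusted p = 0.000411) and Ccl4 (adjusted p = 0.0286), and 1.51% of all genes. Fibroblast markers summed to 3119 to 4309 CPM in Gata3KO_tamoxifen, against 1114 to 3688 CPM in WT_tamoxifen. Keratinocyte markers summed to 374 to 599 CPM in Gata3KO_tamoxifen, against 657 to 813 CPM in WT_tamoxifen, and the part of either cell type in these values was not tested.

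Among the receptors of these ligands, Ccr8 fell in fm_pos_Gata3flox, where Ccl1 was also low. Ccr8 had 546, 747 and 861 CPM in fm_pos_Gata3flox and 1764, 2382 and 2566 CPM in fm_neg_Gata3flox. It had 2071 and 2627 CPM in fm_pos and 2067 and 2170 CPM in fm_neg, so that fm_pos, low in Ccl1, was not low in Ccr8. Its log2 change was −1.64 ± 0.20 against fm_neg_Gata3flox (adjusted p = 0.0106 by edgeR) and −1.71 ± 0.21 against fm_pos (adjusted p = 0.00858), with an interaction of −1.79 ± 0.31 (adjusted p = 0.0333). Ccr6, the Ccl20 receptor, rose by 1.61 ± 0.28 in fm_pos, with 799 and 494 CPM against 187 and 238 CPM in fm_neg (adjusted p = 0.0202). Xcr1 was called in no comparison and ran from 26.0 to 131 CPM over the fate-map libraries. Of the 10 receptors listed, 8 could be tested, and each comparison named here called 1 of the 8. Of all genes tested, 0.235% fell in fm_pos_Gata3flox against fm_neg_Gata3flox and 0.418% fell against fm_pos. In fm_pos against fm_neg 0.624% of all genes rose, and 0.183% were called with a negative interaction. In fm_neg_Gata3flox against fm_neg 1 of the 8, a receptor not reported here by name, was called higher, where 0.596% of all genes were. The Ccr6 call ended on removal of replicate 1 of either group (adjusted p up to 0.0733). The Ccr8 call against fm_pos held without each library (up to 0.0378), that against fm_neg_Gata3flox ended on removal of replicate 2 of either group or of fm_neg_Gata3flox replicate 3 (up to 0.0833), and the interaction ended on removal of 6 of the 10 libraries (up to 0.1).

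Of the 31 other chemokine ligands listed, 23 were tested. Between fm_pos and fm_neg 2 of the 23 fell and 0 rose, where 2.11% of all genes fell and 0.624% rose. The log2 change was negative for 16 and positive for 2, against 48.7% negative over all genes. Cxcl1, a neutrophil-drawing ligand of the same gene cluster as Cxcl2, had 0.0649 and 2.63 CPM in fm_pos against 126 and 173 CPM in fm_neg (−6.76 ± 1.17, adjusted p = 0.0189 by edgeR). Cxcl3, from the same cluster, had 0 and 0.0251 CPM in fm_pos against 2.88 and 7.09 CPM in fm_neg (adjusted p = 0.0227). In fm_pos_Gata3flox against fm_pos 2 of the 23 rose, where 1.11% of all genes rose. They were Cxcl3 (adjusted p = 0.0264) and Cxcl10, an interferon-induced ligand of Cxcr3. Cxcl10 had 172, 273 and 246 CPM in fm_pos_Gata3flox against 61.0 and 56.8 CPM in fm_pos, a log2 change of 1.97 ± 0.33 (adjusted p = 0.0237). By edgeR 0 of the 23 were called in fm_pos_Gata3flox against fm_neg_Gata3flox, where 5 had an unadjusted p under 0.05 (7.79% of all genes). In fm_neg_Gata3flox against fm_neg 0 were called, with 4 under that unadjusted p (17.9% of all genes), and in the interaction 0, with 8 under it (14.8% of all genes). In the tamoxifen libraries 16 were tested and 0 called by edgeR, with 1 under it (6.89% of all genes). The Cxcl1 call held without each library (adjusted p up to 0.0272). The Cxcl3 call against fm_neg was lost without fm_pos replicate 1, the Cxcl3 call against fm_pos without fm_pos replicate 1 or fm_pos_Gata3flox replicate 1, and the Cxcl10 call without either fm_pos library or fm_pos_Gata3flox replicate 2.

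Of 24 NF-kB and immediate early genes, which mark recent activation or handling, 4 fell in fm_pos against fm_neg and 0 rose, where 2.11% of all genes fell. They were Ier3 (−2.32, adjusted p = 0.00565), the immediate early factor Egr1 (−2.78, adjusted p = 0.0202), Zfp36, which destabilises cytokine transcripts (−1.25, adjusted p = 0.0306), and Nr4a2 (−0.995, adjusted p = 0.0362), all by edgeR. The log2 change was negative for 20 of the 24, against 48.7% of all genes, with a median of −0.42 against 0. With fm_neg_Gata3flox as the negative group it was negative for 10 and positive for 14, against 57.4% negative over all genes, and the median was 0.17 against −0.19. In fm_pos_Gata3flox against fm_neg_Gata3flox 1 of 24 fell (0.235% of all genes fell), Nfkbia, the inhibitor that NF-kB induces against itself (−0.60, adjusted p = 0.0346). In fm_pos_Gata3flox against fm_pos 1 fell (0.418% of all genes fell), the stress factor Atf3 (−1.62, adjusted p = 0.0362). In fm_neg_Gata3flox against fm_neg 3 fell, Egr1 (−3.42, adjusted p = 0.0122), Ier3 (−2.06, adjusted p = 0.0127) and Zfp36 (−1.08, adjusted p = 0.0486), and the NF-kB subunit Rel rose (1.01, adjusted p = 0.038), where 0.739% of all genes fell and 0.596% rose. The interaction called 2 of 24 by edgeR, against 1.01% of all genes: Egr1 at 3.36 (adjusted p = 0.0388) and Ier3 at 2.26 (adjusted p = 0.0308). The Egr1 interaction was called without 2 of the 10 libraries and lost without the other 8, with the token term and with the replicate block, and that of Ier3 was called without 3 and lost without 7. Leaving out any single library of its comparison ended the calls of Nfkbia, of Rel and, in fm_neg_Gata3flox, of Zfp36. Of the calls between fm_pos and fm_neg that of Ier3 held without each library (adjusted p up to 0.0155), while those of Egr1, Zfp36 and Nr4a2 ended on removal of replicate 1 of either group, and that of Nr4a2 on removal of fm_neg replicate 2 as well. With fm_neg_Gata3flox as the negative group Egr1 had a log2 change of 0.64 in fm_pos (adjusted p = 0.383), the opposite sign. Ier3 was at −0.26 with that group (adjusted p = 0.611), Zfp36 at −0.17 (0.712) and Nr4a2 at −0.58 (0.131), so none of the 4 calls held. The Atf3 call was lost without fm_pos replicate 2 or fm_pos_Gata3flox replicate 1 or 2. In fm_neg_Gata3flox the Egr1 call was lost without replicate 2 or 3 of that group, and the Ier3 call without any of its 3 libraries. The part of handling in the ligand levels was not tested.

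The genes whose log2 CPM ran most like each ligand over the 10 fate-map libraries were sought among 7976 named genes, and all values are Pearson r over those 10 libraries, which share depth and cell makeup. For Ccl1 they were Il1rl1, the IL-33 receptor of ILC2s (r = 0.977), Akr1b10 (0.9753) and Usp44 (0.966). Il1rl1 had 3.61, 4.89 and 3.71 CPM in fm_pos_Gata3flox against 45.3, 102 and 81.6 CPM in fm_neg_Gata3flox, and 2.11 and 10.3 CPM in fm_pos against 108 and 86.0 CPM in fm_neg. As with Ccl1, no reporter-positive library reached a reporter-negative one. For Cxcl2 they were Nmt2 (0.954), Cytl1 (0.925) and Nfkbia (0.923). For Ccl5 they were Srsf12 (0.984), Plek, a signalling protein of platelets and leukocytes (0.980), and Bend4 (0.978). For Xcl1 they were Tyrobp, an adaptor of activating NK receptors that is also on the myeloid marker list (0.976), Usp37 (0.969) and Bend4 (0.949). For Ccl20 they were Perp, an epithelial junction protein (0.963), Plpp3 (0.943) and Rnd3 (0.939). Ccl3 ran with Smurf1 (0.971), Rbm27 and Zcchc2, and Ccl4 with Rfxap (0.974), Mrpl43 and Fam193b. Among the ligands themselves r was 0.92 for Ccl5 and Xcl1, 0.88 for Ccl1 and Cxcl2 and 0.87 for the neighbours Ccl3 and Ccl4, while it was −0.59 for Ccl3 and Ccl20 and 0.33 for Ccl1 and Ccl5.

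**Figure D3:**
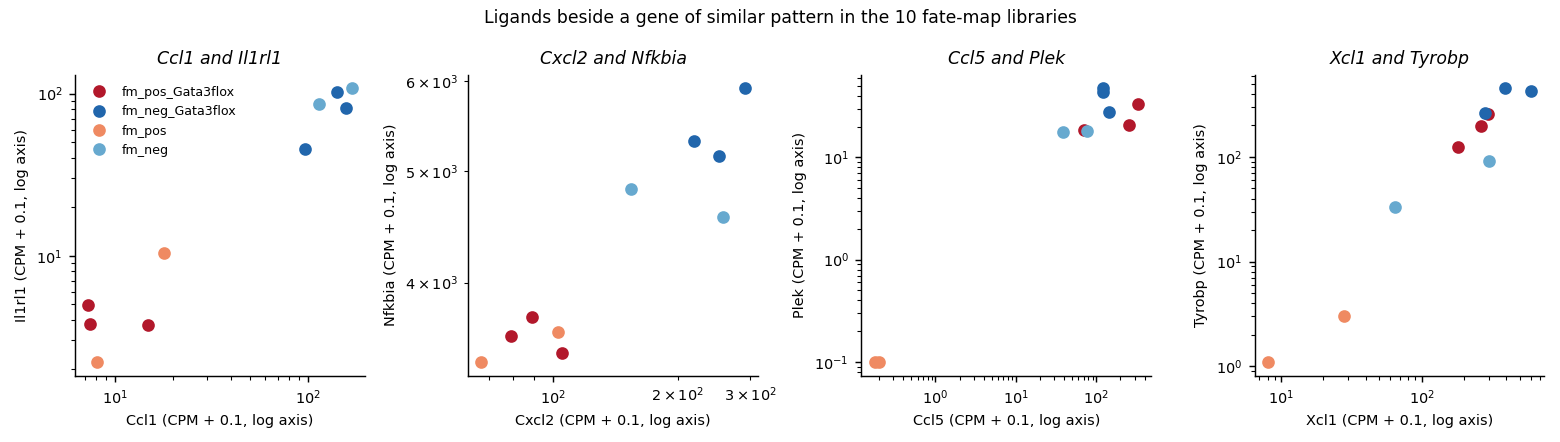
CPM of 4 ligands (horizontal) and of a gene of similar pattern for each (vertical) in the 10 fate-map libraries. Both axes are logarithmic after adding 0.1 CPM, and colours mark the groups. Ccl1 and Il1rl1 separate the reporter-positive from the reporter-negative libraries, whereas Ccl5 with Plek and Xcl1 with Tyrobp set the fm_pos libraries apart at the low end.

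The skin library kept 4103 cells with a median of 2358 counts each. Cxcl2 was the most counted ligand, at 197.5 CPM of all counts summed (95% Poisson interval 189 to 206.3), with a count in 537 cells or 13.1% of them. Ccl1 had 92.9 CPM (87.1 to 99.0) and a count in 297 cells, 7.24%. Ccl5 had 31.1 CPM in 124 cells, Xcl1 21.1 CPM in 102 cells, Ccl4 17.2 CPM in 45 cells and Ccl3 14.55 CPM in 49 cells. All 14 counts of Ccl20 came from 1 cell. The counts were concentrated, since the 10 highest cells held 79.55% of Ccl4 and 24.2% of Ccl1 counts. All single-cell intervals cover counting error within 1 library, with no replicate.

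The cells were grouped without the chemokine ligands, and the ILC2-like cluster of 157 cells, led by Il1rl1, Klrg1, Arg1 and Il5, held the highest Cxcl2 level. Cxcl2 had 1053 CPM there (965 to 1146), with a count in 66 cells or 42.0%, and Ccl1 had 342 CPM (293 to 397), with a count in 39 cells or 24.8%. Ccl3 had 0 counts in those cells, which allows up to 5.94 CPM. An unnamed cluster of 1391 cells led by Hspa1a, Hspa1b and Nfkbid, heat-shock and NF-kB feedback genes, had 257 CPM of Cxcl2 and 126 CPM of Ccl1. The largest cluster, with 1817 cells and no name, had 110 CPM of Cxcl2 and 67.9 CPM of Ccl1. Taken as a possible measure of free RNA, the T cell-like cluster had 3.47 CPM of Ccl1 (2 of 220 cells) and 88.5 CPM of Cxcl2 (17 of 220 cells). Its median was 2414 counts, against 3184 in the ILC2-like cluster. Of its 51 Cxcl2 counts 13 came from 1 cell, so its Cxcl2 level is not a measure of free RNA alone. The larger myeloid-like cluster had 158 CPM of Ccl1 (95.3 to 247) and 108 CPM of Cxcl2 (8 of 44 cells). Its 19 Ccl1 counts came from 4 of 44 cells, with 13 in 1 cell. The same cluster had 1649 CPM of Gata3 (34 of 44 cells) and 483 CPM of Il1rl1. It is thus not a measure of free RNA alone. The 14 B cell-like cells had 0 counts of every ligand, which allows up to 59.97 CPM of each. The Cxcl2 level of the largest cluster is close to those of the T cell-like and the larger myeloid-like clusters. The Ccl1 level of the largest cluster lies below the interval of that myeloid-like cluster, and that of the Hspa1a-led cluster lies inside it. No order is read from these levels.

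Ccl5, Xcl1 and Ccl3 peaked elsewhere. An unnamed cluster of 57 cells led by Gimap4 and Gzma, with Ncr1 at 167 CPM but also Cd3e at 374 CPM, held 47.8% of all Ccl5 counts. Ccl5 had 848 CPM there (718 to 994) and Xcl1 had 452 CPM (359 to 562), which is 37.5% of all Xcl1 counts. Ccl3 had 379 CPM and Ccl4 284.5 CPM in the same cluster, whereas Ccl1 had 27.9 CPM. The Ccl3 counts came from 7 of the 57 cells, with 31 of 68 in 1 cell, and the Ccl4 counts from 8 cells, with 26 of 51 in 1 cell. In the Ccl5 counts 1 cell held 47 of 152. Ccl3 and Ccl4 were at higher CPM in 12 myeloid-like cells, at 454 and 572 CPM, but on 23 and 29 counts, with 18 of the Ccl4 counts in 1 cell. In the T cell-like cluster 60 of the 67 Ccl4 counts came from 1 cell, so its 116 CPM is that cell's level.

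**Figure D4:**
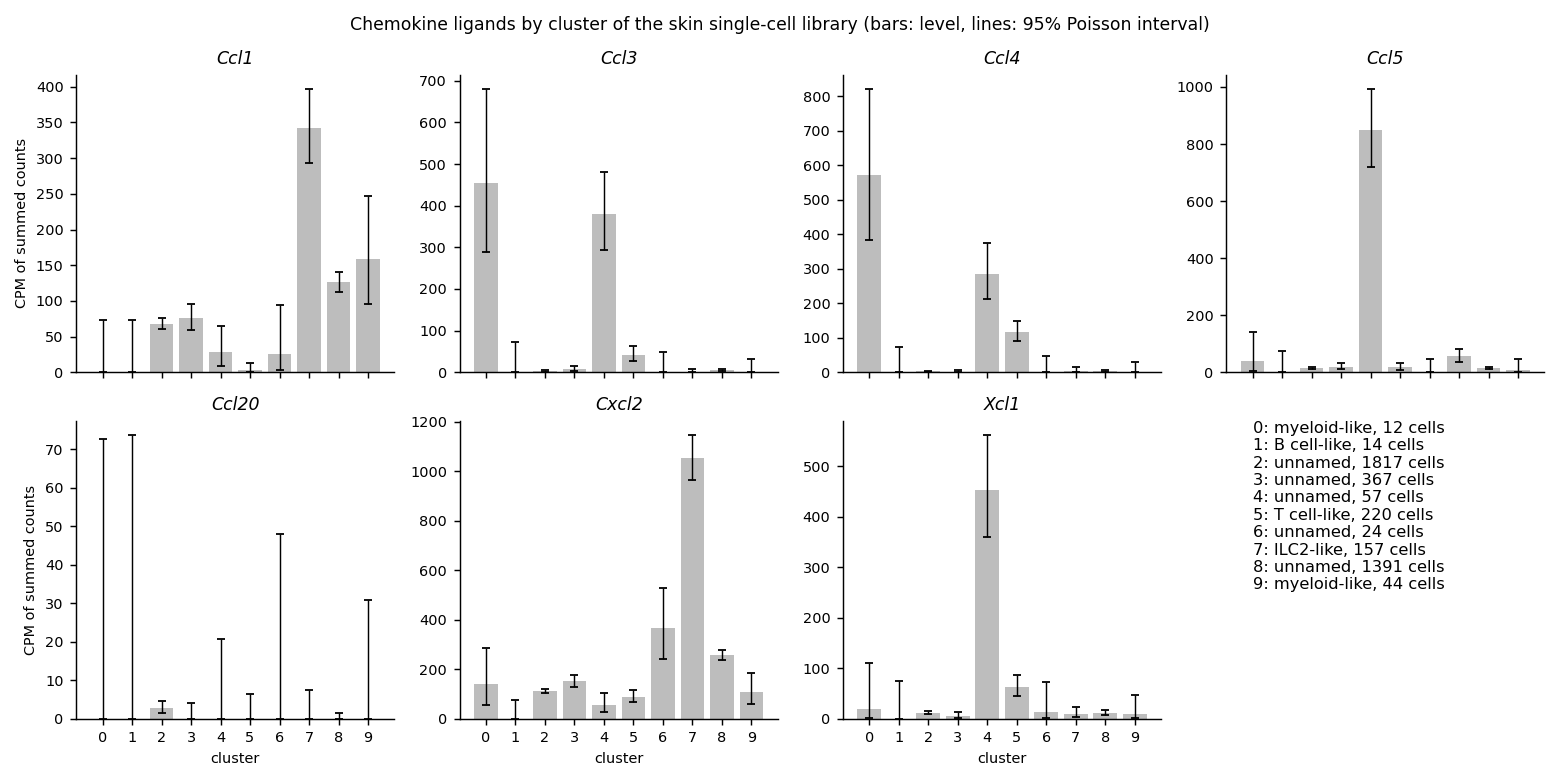
CPM of summed counts of each ligand in the clusters of the skin library, with 95% Poisson intervals (counting error only; 1 library). Cxcl2 and Ccl1 are highest in the ILC2-like cluster, at 1053 and 342 CPM, and Ccl5 and Xcl1 in the Gzma-led cluster of 57 cells, at 848 and 452 CPM.

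Cells with a Ccl1 count had a Cxcl2 count more often than other skin cells, 20.9% of 297 cells against 12.5%, with 62 cells holding both. The Ccl1 cells were also deeper, with a median of 2842 counts against 2324.5. Ccl4 was counted in 14.3% of the 49 Ccl3 cells, against 0.937% of the rest, and Ccl5 in 9.80% of the 102 Xcl1 cells, against 2.85%. Of the receptors, Ccr8 had 279.7 CPM in the library, Ccr6 104 CPM and Xcr1 0.684 CPM.

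In dorsal skin Cxcl2 was higher at day 10 than at day 0 after depilation, and Ccl5 was higher to a smaller extent. With 1 library per day there was no replicate and no test. At day 10 Cxcl2 had 127.5 CPM and at day 0 it had 40.1 CPM, a ratio of 3.18 (95% counting interval 2.24 to 4.57). Ccl5 had 64.9 CPM at day 10 and 35.9 CPM at day 0, a ratio of 1.81 (1.19 to 2.77). The 10 highest cells held 75.45% of the Cxcl2 counts at day 10 and 72.3% at day 0, so both levels rest on few cells. Without the highest cell of day 10 the ratio was 2.49, and without that of day 0 it was 4.80. Without the highest cell of each day it was 3.77 (2.47 to 5.88). The intervals of the others included 1, with 13.9 and 27.3 CPM at day 10 and day 0 for Ccl1 (ratio 0.509, 0.239 to 1.02), 15.1 and 13.7 for Ccl3 (1.10), 30.1 and 21.3 for Ccl4 (1.41) and 96.2 and 77.7 for Xcl1 (1.24, 0.909 to 1.69). Of the 32 Ccl1 counts at day 0, 18 came from 1 cell, without which the ratio was 1.16 (0.490 to 2.70). Without the highest cell of each day the Ccl1 ratio was 0.582 (0.183 to 1.61). Without the highest of the day 0 cells the Xcl1 ratio was 1.61 (1.15 to 2.24), and without the highest cell of each day 1.28 (0.900 to 1.82). Ccl20 had 0 counts on both days, which allows up to 3.48 CPM at day 10 and 2.56 CPM at day 0. Il1rl1 had 452 CPM at day 10 and 159.7 CPM at day 0, a ratio of 2.83.

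**Figure D5:**
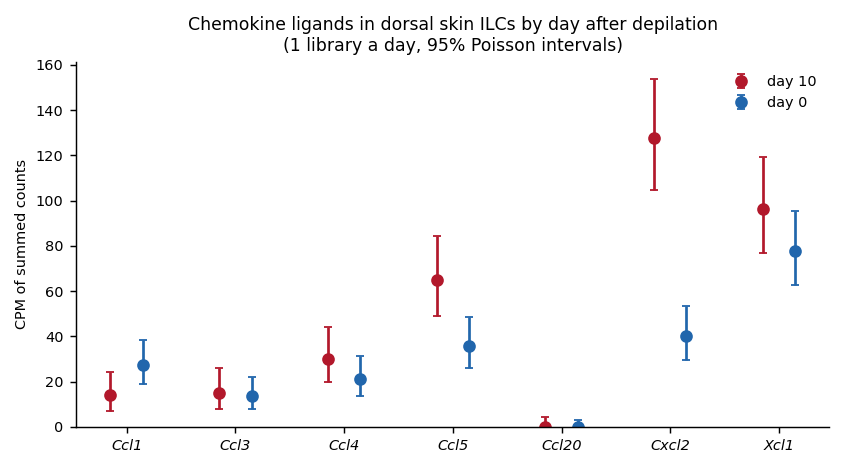
CPM of summed counts of each ligand in dorsal skin ILCs at day 10 (443 cells) and day 0 (553 cells) after depilation, with 95% Poisson intervals (1 library per day). Cxcl2 lies at 127.5 CPM at day 10 and 40.1 CPM at day 0, and the intervals of Ccl1, Ccl3, Ccl4 and Xcl1 overlap between the days.

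Within clusters the day ratios rested on few cells, a check added after seeing the data. Each is thus also given without the highest cell of 1 day and without that of each day. In the ILC2-like cluster (192 cells at day 10, 106 at day 0) Cxcl2 had 124 CPM at day 10 and 69.3 CPM at day 0, a ratio of 1.79 (1.03 to 3.27). At day 10 1 cell held 23 of the 49 Cxcl2 counts, and without it the ratio was 0.957 (0.505 to 1.85). It was 2.135 (1.178 to 4.1) without the highest cell of day 0, and 1.14 (0.582 to 2.31) without that of each day. Ccl1 had 25.4 CPM at day 10 and 88.6 CPM at day 0 there, a ratio of 0.286 (0.122 to 0.625). At day 0 1 cell held 18 of the 23 Ccl1 counts, and without it the ratio was 1.29 (0.402 to 4.82). Without the highest cell of day 10 it was 0.116 (0.0291 to 0.339), and without that of each day 0.522 (0.104 to 2.43). For both ligands the interval in that cluster thus included 1 without the highest cell of each day. In an unnamed cluster led by Zfp36, Nfkbid and Egr1 (81 cells at day 10, 88 at day 0) Cxcl2 had 370 CPM at day 10 and 148 CPM at day 0, a ratio of 2.50 (1.48 to 4.37). It was 1.38 (0.754 to 2.55) without the highest cell of day 10, which held 24 of 52 counts, and 10.2 (4.10 to 32.7) without that of day 0, which held 16 of 21. Without the highest cell of each day it was 5.60 (2.14 to 18.6). Xcl1 had 270.5 CPM at day 10 and 113 CPM at day 0 there, a ratio of 2.40 (1.31 to 4.61), and 1.34 (0.668 to 2.75) without the day 10 cell that held 17 of 38 counts. The Xcl1 ratio was 1.63 (0.780 to 3.55) without the highest cell of each day. In the unnamed cluster with tdtomato among its leading genes (150 cells at day 10, 323 at day 0) Ccl5 had 82.9 CPM at day 10 and 37.2 CPM at day 0, a ratio of 2.23 (1.21 to 4.09), and 1.86 (0.967 to 3.51) without the highest cell of day 10, which held 4 of 23 counts. The Ccl5 ratio was 2.105 (1.08 to 4.08) without the highest cell of each day.

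Split by Il1rl1 instead, the 141 dorsal cells with a count of it had 297 CPM of Cxcl2 (240 to 363), against 36.2 CPM (27.7 to 46.4) in the 855 cells without. The same split gave 46.8 against 92.8 CPM for Xcl1 and 21.85 against 21.6 CPM for Ccl1. The cells with Il1rl1 were deeper, at a median of 2207 counts against 1848. Over all dorsal cells, 1 cell held 24 of the 110 Cxcl2 counts at day 10 and 1 held 16 of the 47 at day 0. The intervals do not cover such unevenness between cells. Split by tdtomato, the transcript of a red fluorescent reporter, the 141 cells with a count had 0 counts of Ccl1, which allows up to 9.11 CPM, against 25.8 CPM (18.8 to 34.7) in the 855 cells without. Only 17 dorsal cells had a Ccl1 count, and 1 of them held 18 of the 44 counts. The 0 is therefore not read as a difference. Cxcl2 had 36.4 CPM in the cells with tdtomato and 85.1 CPM in the cells without. The cells with tdtomato were the deeper ones, at a median of 2262 counts against 1845.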

How the data were processed

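Per the submitters' processing notes, reads were processed with HISAT2 2.1.0 and featureCounts of Subread on mm10. The authors deposited raw counts per gene for each of 14 bulk libraries, and whole-number counts per gene and cell for 3 single-cell libraries, whose platform is not given in the sources used here. Some items of the study and of the naming rule are not reported here.

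Bulk counts were tested in R 4.3.3 with edgeR 4.0.16 (TMM factors, filterByExpr, quasi-likelihood test, Benjamini-Hochberg adjustment over all genes tested, calls under 0.05). One model held the 10 fate-map libraries (17456 genes) and another the 4 tamoxifen libraries (13272 genes). The SE of a log2 fold change is that change over the square root of its F statistic. Where a group held few reads, ratios of summed counts carry a 95% counting interval, and a count of 0 is given with the level of 3 counts. Tests were checked on simulated counts first.

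Single cells were handled with scanpy 1.11.5 in Python 3.11.15. Cells needed at least 200 genes and at most 10% mitochondrial counts, a limit that acted on the skin library alone, since the dorsal libraries list 0 mitochondrial genes. Predicted doublets were removed, 11 in each dorsal library but only 3 of 4106 in skin, where the caller has not worked. The skin and day 0 libraries share 4 cell names, which are plain numbers. Cells were clustered without any chemokine ligand on 2000 variable genes, 30 principal components and 15 neighbours (Leiden, resolution 0.5), and named from fixed marker lists.

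The 7 ligands, the gene lists, the tests and the naming rule were chosen with earlier results of these data known. The rule named the 7 ligands, Gata3, the receptors Ccr8, Ccr6 and Xcr1, at most 5 called genes per list and comparison, the 3 genes of most similar pattern per ligand among genes with a mean of at least 10 CPM, and the cluster with the highest level. Krt14, Ncr1 and Klrb1c were named after their values were seen, as were the clusters beyond the highest and the genes that lead them. Alternatives were DESeq2 1.42.0, no filter, a filter at a mean of 5 CPM, a term for the token in the deposited names, the replicate number as a block, each comparison's groups alone, fm_neg_Gata3flox as the negative group, leaving out each library, a minimum of 500 genes per cell and thinning to 1000 counts. The alternatives for the genes named from the lists were added after seeing the data.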

Additional observations from a re-analysis of the deposited data

Results flagged for a closer look

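For 2 ligands the reporter contrast differed between the mice labelled Gata3flox and those with the allele intact, by the interaction test of edgeR. For Ccl5 the interaction was 10.09 on the log2 scale (adjusted p = 0.00361): the fm_pos_Gata3flox libraries held 332, 257 and 69.8 CPM and the fm_neg_Gata3flox libraries 123, 122 and 144 CPM, whereas fm_pos held 3 reads in each library. For Ccl3 the interaction was −8.61 (adjusted p = 0.0416), in libraries where fm_neg held 1 read in all. Both sizes depend on the prior count of the fit, since 1 of the 4 groups was near 0.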

How the results depend on the processing

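The number of the 7 ligands called moved with the tool and the filter. Between fm_pos and fm_neg, where 3 were called, DESeq2 called 6, no filter gave 6, a filter at a mean of 5 CPM gave 5, these groups fitted alone gave 0, and leaving out 1 library gave 3 to 5. Between fm_pos_Gata3flox and fm_neg_Gata3flox, where 2 were called, the token term gave 1, the replicate block gave 1, and leaving out 1 library gave 0 to 1. Between fm_pos_Gata3flox and fm_pos, where 2 were called, the token term gave 1, the replicate block gave 1, the groups alone gave 0, and leaving out 1 library gave 1 to 2. Between fm_neg_Gata3flox and fm_neg, where 1 was called, DESeq2 called 3, no filter gave 5, and leaving out 1 library gave 0 to 1. For the interaction, where 2 were called, no filter gave 4, the token term gave 1, and leaving out 1 library gave 1 to 3. Between Gata3KO_tamoxifen and WT_tamoxifen, where 0 were called by edgeR, DESeq2 called 2 and leaving out 1 library gave 0 to 0. The share of all genes called moved as well, from 0.213% with the groups alone to 12.6% with DESeq2 between fm_pos and fm_neg. Between fm_pos_Gata3flox and fm_pos it ran from 0% with the groups alone, where no gene was called, to 11%. It ran from 0.0117% to 2.4% between fm_pos_Gata3flox and fm_neg_Gata3flox, and from 0.0292% to 9.07% between fm_neg_Gata3flox and fm_neg. For the interaction it ran from 0.315% to 6.63%, and in the tamoxifen libraries from 0% to 1.51%. Each of these upper shares came from DESeq2.

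With fm_neg_Gata3flox as the negative group, fm_pos had a log2 change of −2.25 for Ccl3 and −3.04 for Ccl4, where fm_neg gave positive changes. Egr1 was at 0.64 with that group and negative with fm_neg. Leaving out 1 library turned the sign of some values that had not been called. In fm_pos_Gata3flox against fm_pos, Ccl20 ran from −0.40 to 6.28, Ccl1 from −0.88 to 0.29 and Cxcl2 from −0.18 to 0.44. In fm_neg_Gata3flox against fm_neg, Ccl1 ran from −0.36 to 0.20 and Cxcl2 from −0.023 to 0.72. The interaction ran from −0.62 to 0.14 for Cxcl2 and from −0.77 to 0.39 for Ccl1. The cause was not tested. Over all alternatives and log2 changes of the 7 ligands, 431 kept their direction and side of the threshold, 32 passed it anew, 40 no longer passed it and 12 turned round. The Ccl5 calls were lost with the groups alone and under no other alternative run, and the Ccl1 call between fm_pos and fm_neg likewise; the Ccl5 interaction was called under all 16 alternatives run. The Ccl1 call in the floxed libraries ended without replicate 2 or 3 of either group (adjusted p up to 0.0675). The Ccl3 interaction was lost with the token term and without 8 of the 10 libraries.

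Libraries with the same replicate number showed little shared deviation from their group means. The correlations ran from −0.026 to 0.097 over 13 pairs in the fate-map set and were 0.011 in the tamoxifen set. In a group of 2 libraries the 2 deviations mirror each other, so these values cannot say whether the numbers pair the libraries. Depth limits the near-zero groups, where 1 to 6 reads set a fold. On thinning 14 of 21 single-cell shares moved. Thinning takes counts away and so lowers such shares by itself, and it cannot say whether a comparison depends on depth.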
